A study of Mus musculus with 2 samples.

Results

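Mir132 and Mir212 are neighbouring microRNA genes on mouse chromosome 11. They were chosen by symbol, through the Ensembl identifiers of the count tables, and make up 2 of the 2202 microRNA genes counted. RNA below 30 bases was sequenced from adult male left cerebral cortex tissue labelled 5xFAD/CAST, 8 to 10 months old. The 5xFAD line expresses its transgenes in neurons from the Thy1 promoter and deposits amyloid, and CAST stands for a wild-derived inbred strain. Which alleles the sampled tissue carried is not stated in the labels. There are 2 libraries, biological replicates 1 and 2 of 1 group, from different tissue samples under 1 donor identifier, so their spread may be technical. Controls were not analysed here: the values below are levels, ratios and differences between these libraries, not effects of a condition.

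In neurons the miR-132/212 transcript is induced by synaptic activity and by the growth factor BDNF through the transcription factor CREB. An RNA hairpin is cut out of it for each gene, Dicer trims the hairpin to a duplex, and one arm of the duplex guides Argonaute to messenger RNAs that match its seed. miR-132 promotes the growth of dendrites and spines, partly by repressing Arhgap32, which encodes a GTPase-activating protein, and its targets also include Foxo3. Loss of miR-132 in the cortex and hippocampus is a known feature of Alzheimer's disease. Both genes are also expressed outside neurons, for example in endothelial cells and leukocytes.

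The mature products are shown because the 3p arms of both genes have the same seed and can pair with the same seed matches, while the rest of each sequence lets reads be assigned to 1 gene. Sequences are from RefSeq (GRCm38.p6, the assembly also called mm10), in which both genes matched. Capitals mark the seed, bases 2 to 8 from the 5′ end.
mmu-miR-132-3p: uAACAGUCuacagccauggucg
mmu-miR-212-3p: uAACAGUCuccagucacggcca
mmu-miR-132-5p: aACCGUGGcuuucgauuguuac
mmu-miR-212-5p: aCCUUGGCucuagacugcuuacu

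The 3p arms shared the seed AACAGUC and were identical at 17 of 22 positions, including the first 9 from the 5′ end. The 5 differences, with the base of miR-132-3p first and positions counted from its 5′ end, were A10C in the middle, C14U and U17C further on, and U20C and G22A near the 3′ end. The 5p arms had different seeds and matched at 9 of 22 aligned positions. Among 1738 mature mouse microRNA entries no other gene carried the seed of any of these arms. The seed group of the 3p arms therefore consisted of these genes alone in the RefSeq table.

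The precursors are shown to place the arms, which are in capitals, 5p before 3p. The counts are per precursor gene and do not tell the arms apart.
Mir132: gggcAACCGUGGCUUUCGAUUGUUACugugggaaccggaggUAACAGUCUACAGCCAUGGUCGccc
Mir212: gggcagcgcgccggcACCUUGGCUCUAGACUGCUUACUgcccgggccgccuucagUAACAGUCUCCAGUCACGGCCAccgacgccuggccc

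The Mir132 precursor had 66 bases with 57.6% G and C, and its predicted minimum free energy fold had 26 base pairs at -37.2 kcal/mol. The Mir212 precursor had 91 bases with 69.2% G and C, and its predicted fold had 32 base pairs at -41.5 kcal/mol. The longest stretch common to both precursors was 10 bases. No stretch of 20 bases of either precursor occurred, on either strand, in any other gene among 141767 annotated transcripts; the genome outside transcripts was not searched. Reads of a usual microRNA length could therefore be told apart between the members.

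Mir212 (ENSMUSG00000065590.1) lies at chr11:75173388-75173478 and Mir132 (ENSMUSG00000065537.2) at chr11:75173682-75173747, both on the plus strand of mm10. In the GENCODE M21 annotation both sit in intron 1 of the non-coding gene 1700016P03Rik (chr11:75172560-75177633), which has 3 exons. Mir212 comes first in the direction of transcription, 828 bases after the start of the host gene, and 203 bases separate it from Mir132. The nearest protein-coding gene upstream is Hic1, on the opposite strand, and Ovca2 overlaps the far end of the host on the opposite strand without reaching the precursors. The map of the host gene shows both precursors between exons 1 and 2.

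**Figure D1:**
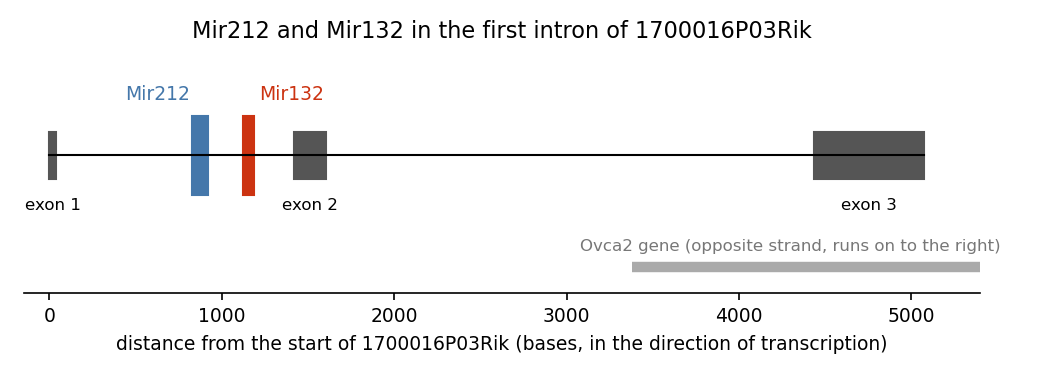
Map of 1700016P03Rik (horizontal axis: distance in bases from its annotated start, in the direction of transcription). Dark boxes are its 3 exons, the blue and red boxes are the precursors of Mir212 and Mir132, and the grey bar is Ovca2 on the opposite strand; both precursors lie in the first intron, 203 bases apart.

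Mir132 was among the most abundant microRNA genes by counted reads in these cortex libraries. It had 97019 sense reads in replicate 1 and 198517 in replicate 2. Scaled to 1000000 reads assigned to microRNA genes (CPM), these were 19682 and 44698 CPM, a mean of 32190 ± 17689 CPM (SD, n = 2). Its share of the assigned reads was 1.97% in replicate 1 and 4.47% in replicate 2.

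Mir212, from the same intron, was far lower. It had 2507 sense reads in replicate 1 and 2799 in replicate 2, which were 509 and 630.2 CPM, a mean of 569 ± 86.0 CPM (SD, n = 2). The ranges of the genes over the libraries did not overlap: the higher Mir212 value lay below the lower Mir132 value. No read was counted on the opposite strand of either gene in either library; 0 reads allow an opposite-strand level of up to 0.00309% of the sense reads of Mir132 and 0.120% of those of Mir212 in replicate 1. Counts without regard to strand were the same as the sense counts for both genes.

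By the mean of both libraries Mir132 ranked 8 and Mir212 ranked 118 of the 417 genes called detected, which reached 10 or more reads in both libraries. Reads that mapped to several places, 38.5% in replicate 1 and 33.0% in replicate 2, are left out of gene counts. These ranks therefore hold for the counted reads only, and microRNAs made from several loci can stand too low. The rank of Mir132 was 11 in replicate 1 and 6 in replicate 2, and that of Mir212 was 129 and 113. In order of the mean, Mir132 stood between Mir127 (38107 and 27235 CPM) of the imprinted Dlk1-Dio3 locus and Mirlet7e (27525 and 30721 CPM). One place further out were Mirlet7d (42692 and 42477 CPM) and Mir99a (28643 and 15748 CPM). The range of Mir132 between the libraries overlapped the ranges of 5 genes, namely these 4 and Mir23b, so the order among them is not fixed by these libraries.

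Mir212 stood between Mir16-1 (741 and 400.1 CPM) and Mir381 (594 and 539 CPM), with Mir532 (673 and 471 CPM) and Mirlet7c-1 (637 and 476 CPM) next to them. Its range overlapped those of 29 other genes. Mir381, a microRNA of the distal Dlk1-Dio3 cluster, differed from Mir212 by 2.46 CPM in the mean, less than the SD of either gene. The position of Mir212 among genes of this level is thus not resolved beyond the spread of the libraries.

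**Figure D2:**
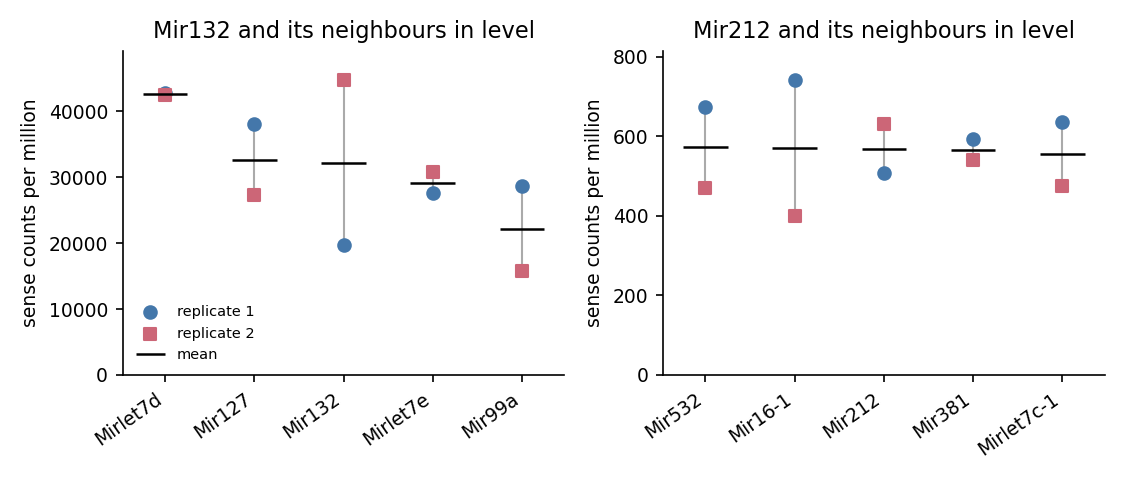
Sense CPM (vertical axes, linear, from 0) of Mir132 and Mir212 and of the 2 genes above and below each by mean level. Circles are replicate 1, squares replicate 2, and the bars are their mean; Mir132 (19682 and 44698 CPM) is the gene of its panel with the widest gap and is higher in replicate 2, as Mir212 is (509 and 630.2 CPM).

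Both genes were higher in replicate 2 than in replicate 1, Mir132 by much more. Mir132 was 2.27-fold higher, a log2 ratio of 1.18 (exact 95% interval 1.17 to 1.19). Mir212 was 1.24-fold higher, a log2 ratio of 0.31 (0.23 to 0.39). In an exact two-sided binomial test of the reads, adjusted by Benjamini-Hochberg over the 417 genes and conditional on the totals of the libraries, Mir212 passed the threshold of 0.05 (adjusted p = 2.09e-14), and the p of Mir132 was too small for the software to represent. The test and its intervals cover counting error only and compare these libraries; 59.2% of the detected genes passed it, 24.7% as higher and 34.5% as lower in replicate 2, so passing it is common here.

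The size of the Mir132 gap was less common than the fact of a difference. Genes called higher in replicate 2 by at least 2-fold made up 6.47% of the detected genes, and Mir132 was among them. The median detected gene was 1.29-fold apart in either direction, and 36 of 417 genes had a wider gap than Mir132. Of the 270 genes that reached 100 reads in both libraries, 22 had a wider gap. Among the 20 genes with a mean of at least 10000 CPM, where counting error is smallest, the median gap was 1.12-fold, no gene had a wider one than Mir132, and the next was 1.85-fold. For Mir212, 233 of the 417 genes had a wider gap, so its 1.24-fold was below the median gap.

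The scaling changed the size of these ratios. With all reads of a library as the total, unassigned ones included, every log2 ratio shifted by -0.20. Mir132 was then 1.98-fold higher in replicate 2, just below 2-fold, and Mir212 1.08-fold higher (adjusted p = 0.0108, exact binomial test). The split of called genes moved from 103 higher and 144 lower to 73 higher and 197 lower. Measured from the median log2 ratio of the detected genes, a distance that no scaling alters, Mir132 was 1.23 and Mir212 0.36 higher. Reads that could not be mapped were 25.6% in replicate 1 and 34.3% in replicate 2, and reads that mapped to several places 38.5% and 33.0%. Their part in the ratios was not tested.

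**Figure D3:**
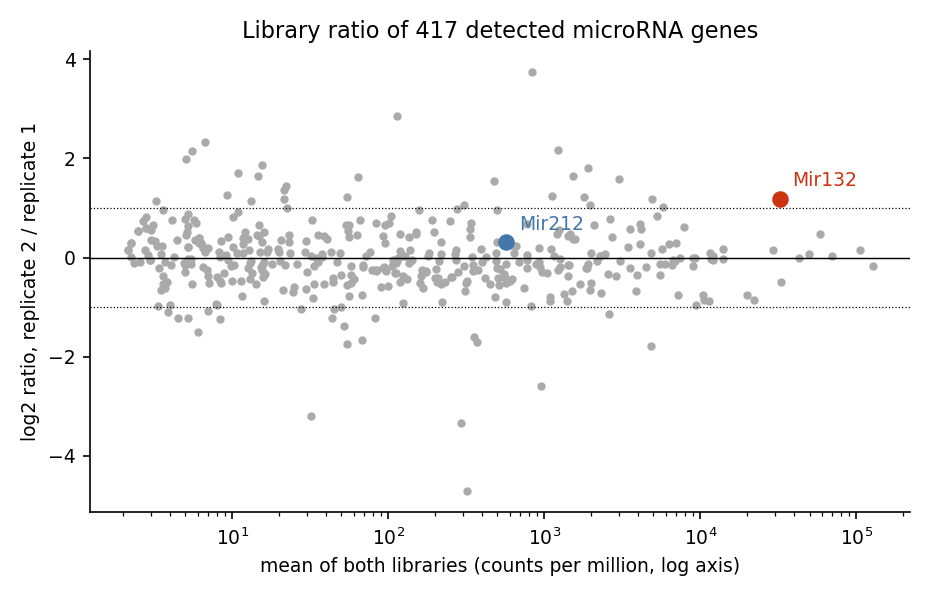
Log2 ratio of replicate 2 to replicate 1 (vertical axis) against the mean level in CPM (horizontal axis, log scale) for the 417 detected microRNA genes, 1 point each. Dotted lines mark 2-fold; Mir132 (log2 ratio 1.18) lies above the upper line at the abundant end, and Mir212 (0.31) lies within the cloud of genes of its level.

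Because the precursors are taken to come from 1 transcript, their ratio within a library was compared next; it does not depend on any scaling. Mir132 had 38.7 reads for each Mir212 read in replicate 1 (exact 95% interval 37.2 to 40.3) and 70.9 in replicate 2 (68.3 to 73.6). Mir212 made up 2.52% of the reads of the cluster in replicate 1 (Clopper-Pearson 95% interval 2.42 to 2.62) and 1.39% in replicate 2 (1.34 to 1.44), a mean of 1.95 ± 0.798% (SD, n = 2). The intervals of the libraries did not overlap. These are ratios of reads, and the ratio of the RNA molecules themselves was not measured.

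The ratio of Mir212 to Mir132 was lower in replicate 2 by a log2 odds ratio of -0.87 (exact 95% interval -0.95 to -0.79; Fisher's exact test, two-sided, p = 6.63e-103, and 8.87e-102 after Benjamini-Hochberg adjustment over 107 pairs). At the ratio of replicate 1, the Mir132 reads of replicate 2 would go with 5130 Mir212 reads, and 2799 were counted, 54.6% of that number. Put in levels, replicate 2 exceeded replicate 1 by 25016 CPM at Mir132 and by 122 CPM at Mir212. The genes were thus higher in the same library but not in proportion. Their sum was 20190 CPM in replicate 1 and 45328 CPM in replicate 2, a mean of 32759 ± 17775 CPM (SD, n = 2), or 3.28 ± 1.78% of the assigned reads, and nearly all of it is Mir132.

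To see how usual such a shift is, the same ratio was taken for all 107 pairs of detected genes that follow each other on a strand within 10 kb. Of these pairs, 62.6% passed Fisher's exact test after adjustment. The median shift was 1.33-fold; that of Mir132 and Mir212 was 1.83-fold and was exceeded by 21 of the 107 pairs. Among the 75 pairs in which both genes reached 100 reads in both libraries, the median was 1.29-fold and 16 pairs shifted more. A changed ratio between neighbours was therefore common in these libraries, and the shift of Mir132 and Mir212 was in the upper part of the range but not at its end. In 62 of the 107 pairs both genes were higher in the same library.

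The unequal level of the members was also in the upper part. The higher gene of a pair exceeded the lower by a median of 7.28-fold, and 12 of the 107 pairs had a wider level gap than Mir132 and Mir212. Of 13 well known pairs that were listed, 12 had both genes detected, and their shifts ran from 1.01-fold to 2.38-fold, with 2 wider than that of Mir132 and Mir212. The vascular pair Mir143 and Mir145a had a level gap of 27.2-fold in replicate 1 and 23.3-fold in replicate 2, a 1.17-fold shift. The erythroid pair Mir451a and Mir144 stood at 9.16-fold and 8.29-fold, although both genes were far lower in replicate 2. There Mir144 had only 28 reads. Mir195a and Mir497 kept a gap of 3.28-fold and 3.30-fold.

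The pairs with a wider shift were these. Mir29a and Mir29b-1 stood at 433-fold in replicate 1 and 182-fold in replicate 2, and Mir16-2 and Mir15b at 1.67-fold and 0.717-fold, with the order of the genes reversed. The other listed pairs shifted less. Mir23b and Mir24-1 stood at 894-fold and 494-fold, a 1.81-fold shift close to that of Mir132 and Mir212. Mir221 and Mir222 stood at 5.21-fold and 3.35-fold, Mir99a and Mirlet7c-1 at 45.0-fold and 33.1-fold, and Mir181c and Mir181d at 1.26-fold and 0.990-fold. Mir191 with Mir425, Mir30d with Mir30b and Mir193b with Mir365-1 shifted by 1.05-fold, 1.08-fold and 1.14-fold. The last of these rests on as few as 11 reads of Mir365-1, so its shift is poorly measured. Mir29b-1, Mir16-2, Mir24-1, Mirlet7c-1 and Mir365-1 have copies with the same mature sequence elsewhere, and multi-mapping reads are left out of gene counts, so their pair values are uncertain.

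**Figure D4:**
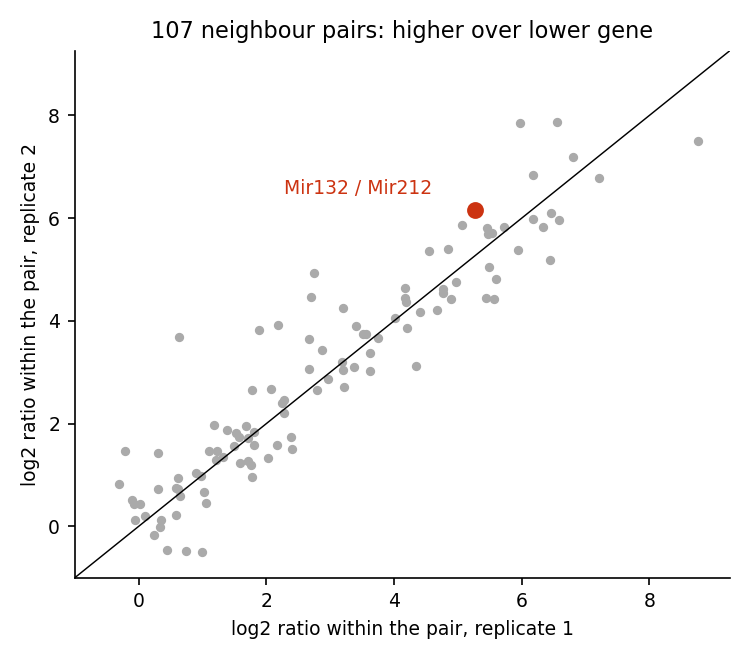
Log2 ratio of the higher to the lower gene (by mean level) of each of 107 neighbour pairs in replicate 1 (horizontal axis) and replicate 2 (vertical axis), with the line of equal ratios. The pair Mir132 and Mir212 (38.7-fold and 70.9-fold) lies above the line; 21 pairs lie farther from it.

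The genes with the library ratio nearest that of each member were taken from 270 genes that reached 100 reads in both libraries; with 2 libraries this is a likeness of 1 number only. For Mir132 these were Mir674 (2974 and 6753 CPM, log2 ratio 1.18), Mir29b-1 (32.7 and 76.6 CPM, 1.23) and Mir219a-2 (1064 and 2501 CPM, 1.23). For Mir212 they were Mir672 (447 and 553 CPM, 0.31), Mir10b (20.5 and 25.4 CPM, 0.31) and Mir329 (194 and 242 CPM, 0.32). The ratio of Mir10b did not pass the binomial test (adjusted p = 0.174, exact). No gene appeared near both members. The next detected microRNA gene downstream of the cluster on chromosome 11, Mir22, 289969 bases away, had 2847 and 4264 CPM, a log2 ratio of 0.58, and the next one upstream, Mir7115, had 17 and 16 reads.

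A list of 32 microRNA genes linked to neuronal activity, synapses or light-driven activity in the retina holds Mir132 and Mir212. Of its members 29 were detected. In replicate 2, 4 were higher, 17 lower, and 8 did not pass the test, against 103, 144 and 170 of the 417 detected genes. Among the 270 genes with at least 100 reads in both libraries, 88 were higher and 130 lower. The list was chosen with earlier results of these data known and holds several loci of the same microRNA, so its split is a description only. Beside Mir132 and Mir212 the higher members were Mir329, of the Mef2-regulated Mir379 cluster, and Mir219a-2, which is known above all from oligodendrocytes. The median log2 ratio of the list was -0.25, against -0.05 over all detected genes. The direction of Mir132 was thus not that of most of the list. Without Mir132 and Mir212, the summed level of the list was 50697 CPM in replicate 1 and 35820 CPM in replicate 2; with them it was 70887 and 81147 CPM, so that the direction of the sum turned on Mir132. With all reads as the total, the sum with them was level between the libraries (log2 ratio -0.01). At that total 3 members were higher and 20 lower, against 73 higher and 197 lower of the 417 detected genes.

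Most of the abundant members of that list differed in the direction opposite to Mir132. Mir128-1, which dampens neuronal excitability, was lower in replicate 2 (13556 and 7493 CPM, log2 ratio -0.86), as was Mir137, a regulator of synaptic genes (12338 and 6351 CPM, -0.96). Mir128-2 (-0.71), Mir129-2 (-0.73), Mir181a-1 (-0.61) and Mir138-2 (-0.37) were lower as well. Mir129-1 (-0.41), Mir188 (-0.30) and Mir138-1 (-0.08) also passed the test as lower. All of these kept their direction under the scalings tried, but Mir138-1 did not pass with TMM (-0.03, adjusted p = 0.167, exact binomial test).

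Of the Mir379 cluster, which Mef2 induces with activity, the list holds 6 genes; its other genes were not listed. Mir379 itself stood at 6208 and 5696 CPM (log2 ratio -0.12), Mir134, which represses Limk1 in dendritic spines, at 534 and 459 CPM (-0.22), and Mir381 at -0.14; all 3 passed the test as lower. Mir495 (144 and 139 CPM, -0.05) did not pass. Mir485 (2255 and 2294 CPM, 0.02) did not pass either, but its call depends on the scaling: in the exact binomial test it was higher in replicate 2 with TMM (0.07, adjusted p = 0.000563) and DESeq2 size factors (0.05, adjusted p = 0.0361), and lower with all reads as the total (-0.18, adjusted p = 1.29e-18). With all reads as the total Mir495 also passed as lower (-0.25), and Mir329, at a log2 ratio of 0.32 otherwise, no longer passed as higher (0.12, adjusted p = 0.106, exact binomial test). Each of these 6 listed genes had a log2 ratio far smaller in size than the 1.18 of Mir132.

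The remaining members were low or are known from other cells too. Mir182 (74.9 and 28.8 CPM), Mir183 (92.1 and 77.7 CPM), Mir204 (1084 and 553 CPM), Mir9-1 (39.6 and 27.2 CPM) and Mir9-3 (106 and 87.8 CPM) were lower in replicate 2. Of these, Mir183 did not pass with TMM (adjusted p = 0.0891) or DESeq2 size factors (adjusted p = 0.0516, exact binomial tests). Mir184, Mir181a-2, Mir211, Mir219a-1, Mir9-2 and Mir124a-1 did not pass the test. Mir96, Mir124a-2 and Mir124a-3 had fewer than 10 reads in at least 1 library. Mir9, Mir124, Mir128, Mir129, Mir138, Mir181a and Mir219a are each made from several loci, so their counts can miss reads that map to several places.

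Marker microRNAs of cell types were set beside the Mir132 gap, since in bulk tissue fewer cells of a type and less RNA per cell cannot be told apart. Of 13 neuronal markers, 11 were detected, with 1 higher and 9 lower in replicate 2, or 1 and 8 with TMM; over all 417 detected genes 24.7% were higher and 34.5% lower. Their summed level was 38841 CPM in replicate 1 and 22703 CPM in replicate 2. They were led by Mir128-1, Mir137 and Mir138-1, and the 3 Mir124a loci, the defining neuronal markers, had at most 21 reads. Most neuronal markers, the loci of Mir124a, Mir128, Mir129, Mir137 and Mir138, are also in the activity-linked list. The splits of these lists are therefore not independent. Outside that list were Mir153 (log2 ratio -2.60) and Mir218-1 (-1.22), lower in replicate 2, and Mir218-2 (0.48), which was higher. Mir219a-2 of the oligodendrocyte markers and Mir204 and Mir211 of the choroid plexus markers are in that list too. The log2 ratio of the neuronal sum was -0.77, against 1.18 for Mir132. The 7 astroglial markers, led by Mir23b, Mir29a and Mir29c, summed to 41855 and 32431 CPM. The gap of Mir23b alone (25038 and 14908 CPM) was wider than that of the sum, and the median log2 ratio of the 7 was 0.11. Of these markers 3 were higher and 2 lower, or 4 and 1 with TMM, where Mir29a turned from lower (-0.02) to higher (0.02). The oligodendrocyte markers Mir338 and Mir219a-2 were both higher in replicate 2, at a sum of 3387 and 5618 CPM, and the third, Mir219b, had no read.

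The summed markers of cells in which miR-132 and miR-212 are also made differed less. The 4 markers of endothelium and mural cells, led by Mir126a, Mir143 and Mir145a and with no read at Mir126b, summed to 20418 and 21812 CPM. The 5 markers of microglia and leukocytes, led by Mir150, Mir146 and Mir142, all detected, summed to 1934 and 2080 CPM. Both sums were lower in replicate 2 with all reads as the total (log2 ratios -0.11 and -0.10). The microglia and leukocyte sum joins opposite differences, here with gene-assigned reads as the total. Mir146 was higher in replicate 2 (log2 ratio 0.67), Mir150 (-0.30) and Mir155 (-0.31) were lower, and Mir142 and Mir223 did not pass the test. The 3 red blood cell markers Mir451a, Mir144 and Mir486 were all detected and summed to 602 and 88.5 CPM. They did not share a direction. Mir451a and Mir144 were lower in replicate 2 (log2 ratios -3.34 and -3.20), while Mir486 was higher (15.0 and 29.9 CPM). The 6 choroid plexus markers, led by Mir204, Mir1298 and Mir1264, summed to 1823 and 851 CPM. Of these, 5 were detected and 4 were lower in replicate 2, against 34.5% of all 417 detected genes and 130 of the 270 with at least 100 reads. The 5 markers of hindbrain and spinal cord had Mir10a and Mir10b detected, ahead of Mir196b, with no read at Mir196a-1 and Mir196a-2, and summed to 92.5 and 68.2 CPM. As far as the loci were counted, neuronal and astroglial markers had the largest sums. The markers of hindbrain and spinal cord were near 0, and the Mir124a loci were the exception among neuronal markers. The lists differ in length, so their sums are only roughly comparable. In replicate 2 the neuronal sum (22703 CPM) was close to that of endothelium and mural cells (21812 CPM). The part of cell composition in the Mir132 gap was not tested.

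Base composition of the precursors was a weak correlate of the library ratio. Across the 417 detected genes, which share both libraries and are not independent, the share of G and C in the annotated precursor and the log2 ratio were related with a Spearman coefficient of 0.098 and a Pearson coefficient of 0.096. Mir212, with the richer precursor, had the smaller ratio of the members. The part of base composition in the changed ratio of Mir212 to Mir132 was not tested.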

How the data were processed

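The authors deposited 1 table of raw read counts per microRNA gene for each of 2 libraries, made against mm10 and GENCODE M21 per the notes deposited with the files. For the aligner, the counter and its options: not given in the sources used here. Each table has columns without strand, sense and antisense, inferred from a layout like that of STAR gene counts. All 2202 identifiers were found in M21. Sense counts were scaled to 1000000 gene-assigned reads (4929428 in replicate 1, 4441328 in replicate 2; 1 read is 0.203 and 0.225 CPM); unassigned lines, 69.9% and 73.9% of the reads, stayed out. Reads carry no molecular identifiers used here. Tests were exact binomial and Fisher's tests (scipy 1.17.1) with Benjamini-Hochberg adjustment. They were checked on simulated counts with counting error only, the error the tests assume. That check says nothing about other spread between real libraries. Folds were predicted with RNAfold 2.7.2. Scaling alternatives used edgeR 4.0.16 and DESeq2 1.42.0. Genes were named by rule: the members, their 2 neighbours in level on each side, the 3 nearest library ratios, the nearest genes on the chromosome, the fixed pairs, every member of the activity-linked list and the 3 leading markers of each cell type. Markers beyond these were named for opposite directions, missing reads or overlap between lists. The members and lists were chosen with earlier results of these data known.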

Additional observations from a re-analysis of the deposited data

How the results depend on the processing

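Both genes stayed higher in replicate 2 and past the threshold in all 5 alternatives run on their ratios (counts without strand, TMM, DESeq2 size factors, all reads as the total, and the total without the 20 most abundant genes). The log2 ratio ran from 0.98 to 1.23 for Mir132 and from 0.11 to 0.36 for Mir212, where the adjusted p of the exact binomial test ran from 9.03e-19 to 0.0108. The ratio of the genes is the same with and without strand. Levels depend on the total: with all reads the means were 8799 CPM for Mir132, 159 CPM for Mir212 and 8957 CPM for the sum, and without the 20 most abundant genes they were 106153, 1880 and 108033 CPM, because the totals themselves differ. Leaving out 1 library gave 19682 to 44698 CPM for Mir132, 509 to 630.2 CPM for Mir212, 20190 to 45328 CPM for the sum and 1.39% to 2.52% for the share of Mir212. The number of genes that differ between the libraries was 247 and ran from 218 to 270. No paired analysis was possible because the series has 1 group. With 2 libraries the spread is known only roughly, while counting error is small for both genes.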
